A study of Mus musculus with 2 samples.

Results

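The genes described here are those of MHC class I and its peptide loading in mouse colon: the heavy chains H2-K1, H2-D1, H2-T23 and H2-M3, the light chain B2m, the peptide transporter genes Tap1 and Tap2, Tapbp, Erap1 and the regulator Nlrc5. These 10 genes were taken as a named pathway, with earlier results of these data known, and each was found through the RefSeq accession of its probes, which gave 15 probes among the 56593 used and 10 of the 22905 genes matched on the array. RNA of whole colon from C57BL/6 mice, 8 weeks old by the methods of the study, was hybridized in 1 colour (Cy3) to 2 Agilent mouse arrays, 1 for each genotype. Villin-Cre mice, the controls, carry only the Cre recombinase, which the Villin promoter drives in intestinal epithelium. EP4 cKO mice (Villin-Cre; EP4flox/flox) carry the same Cre together with floxed alleles of Ptger4, the gene of the prostaglandin E2 receptor EP4, so that the recombination is directed to epithelial cells and not to the other cells of the colon. Each array was hybridized with RNA combined from 3 pools of colon.

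Every difference between the arrays therefore rests on 1 measurement for each genotype, has no replicate check and carries no p-value. The signals were scaled so that the trimmed mean of each array was 2500, and the ratio is always the array labelled EP4 cKO over the array labelled Villin-Cre. A probe was counted as well above background by the flag of the scanner software, which marked 45.4% of the probes for Villin-Cre and 51.6% for the array labelled EP4 cKO. The lowest normalized signal among these probes, called the floor below, was 125 and 57.8, respectively. No spot was saturated. Where a probe passed on 1 array only, the dim array was set no lower than its floor and the fold is written as "at least". As a check of the labels, the targeted gene was read first. The brighter Ptger4 probe read 6227 for Villin-Cre and 5661 for the array labelled EP4 cKO. Its log2 ratio was -0.14, which turned positive in 4 of 9 alternative ways of processing. The other Ptger4 probe read 393 and 592. Whether these probes lie in the floxed part was not analysed here, so they leave the genotype unchecked, and every direction below rests on the labels of the arrays.

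MHC class I molecules show fragments of proteins made inside a cell to CD8+ T cells and natural killer cells, and nearly all nucleated cells carry them, those of the intestinal epithelium included. Proteasomes cut proteins to peptides, TAP carries the peptides into the endoplasmic reticulum (ER), ERAP1 trims them there, and tapasin holds the empty heavy chain with beta-2 microglobulin beside TAP until a peptide binds. NLRC5 is the transactivator that acts at the promoters of these genes through a set of conserved boxes and the DNA-binding factors that sit on them, and interferons raise transcription of the pathway.

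The promoters of the genes that moved together on these arrays are shown first, with the letters of the boxes that the background on class I promoters names. The RefSeq table of promoters for the assembly GRCm38.p6 held windows for 8 of the 10 genes. Windows for Tap2 and Nlrc5 were not used here. Each window ran from 250 bases before the start site to 50 bases after it, and the 200 bases just before the start site are printed for 6 genes, 5′ to 3′ along the gene. H2-K1 had windows for 2 start sites, and the one further downstream is shown. Capitals mark, on either strand, the interferon response core (GAAA, any 2 bases, then GAAA again) and its form shorter by 1 base, GAANNGAAA, the core of the cAMP response element (CRE), TGACG, the Y box CCAAT, which reads as ATTGG on the opposite strand, and the kappaB element, which is the longest run of capitals in H2-K1 and H2-D1.
B2m (chr2:122147487-122147686, plus strand): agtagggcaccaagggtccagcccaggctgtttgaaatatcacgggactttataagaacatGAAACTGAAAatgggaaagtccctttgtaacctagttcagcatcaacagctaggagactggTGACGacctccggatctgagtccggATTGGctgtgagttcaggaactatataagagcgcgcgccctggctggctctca
H2-K1 (chr17:34000334-34000533, minus strand): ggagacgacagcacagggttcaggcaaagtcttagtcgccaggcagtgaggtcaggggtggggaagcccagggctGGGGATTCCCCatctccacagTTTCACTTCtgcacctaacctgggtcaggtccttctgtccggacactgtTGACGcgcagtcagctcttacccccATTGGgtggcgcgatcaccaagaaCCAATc
H2-D1 (chr17:35262894-35263093, plus strand): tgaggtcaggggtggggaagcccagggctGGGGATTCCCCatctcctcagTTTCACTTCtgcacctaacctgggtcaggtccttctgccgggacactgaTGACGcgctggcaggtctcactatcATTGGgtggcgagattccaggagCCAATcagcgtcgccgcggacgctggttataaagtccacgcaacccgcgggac
H2-M3 (chr17:37270034-37270233, plus strand): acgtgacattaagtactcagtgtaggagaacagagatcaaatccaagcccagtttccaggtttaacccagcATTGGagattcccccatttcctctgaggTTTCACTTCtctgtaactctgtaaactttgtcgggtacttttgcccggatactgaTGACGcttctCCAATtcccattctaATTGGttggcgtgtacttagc
H2-T23 (chr17:36032702-36032901, minus strand): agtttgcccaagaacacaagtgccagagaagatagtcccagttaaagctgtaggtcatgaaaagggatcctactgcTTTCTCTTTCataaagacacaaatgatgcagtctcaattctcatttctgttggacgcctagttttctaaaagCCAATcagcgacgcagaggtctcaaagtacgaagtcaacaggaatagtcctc
Tap1 (chr17:34187356-34187555, plus strand): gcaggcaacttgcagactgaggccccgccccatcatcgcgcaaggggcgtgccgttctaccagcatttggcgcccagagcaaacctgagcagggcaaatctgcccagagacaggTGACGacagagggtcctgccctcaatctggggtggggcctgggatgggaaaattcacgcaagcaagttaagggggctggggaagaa

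B2m, H2-K1, H2-D1 and H2-M3 carried the same arrangement, a TGACG followed on the same strand by an inverted Y box, ATTGG, whose starts lay 25 bases apart. The TGACG began 78 bases before the start site in B2m, 55 before it in H2-K1, 101 before it in H2-D1 and 46 before it in H2-M3. This spacing was noticed while reading the windows. It was found in 31 of 32851 RefSeq windows (0.0944%), which belonged to 27 of 27025 genes. In the other lists described below, it was in none of the genes that had a window, which were 18 of 27 other class I genes, 15 of 17 for peptide supply, 16 of 18 for ER assembly, 12 of 16 promoter factors, 8 of 10 class II genes and 12 of 16 receptors. The listed genes without a window were not searched. Each box alone was common: TGACG was in 20.8% of all windows and in 5 of the 8 genes, and CCAAT in 37.4% and in 7, all but Erap1. Both motifs in the same window, at any distance, were in 7.73% of all windows and in the same 5 genes as TGACG, the 4 above and Tap1. The 2 forms of the interferon response core, searched on both strands, were in different genes, and Tap1 and Tapbp held neither. The longer form (3.44% of all windows) was in B2m, H2-T23 and Erap1, and the shorter one (7.52%), which was added after the windows had been read, was in H2-K1, H2-D1 and H2-M3. The kappaB element of H2-K1 and H2-D1, also added then, was in 10 of all windows (0.0304%), theirs included. A looser kappaB form (GGG, any 5 bases, then CC), which each such element also holds, was in 50.8% of all windows and in 5 of the 8 genes, and the STAT site TTCNNNGAA (8.3%) was in H2-M3 only. A match of letters is a description of the sequence and not a measured binding site.

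**Figure D1:**
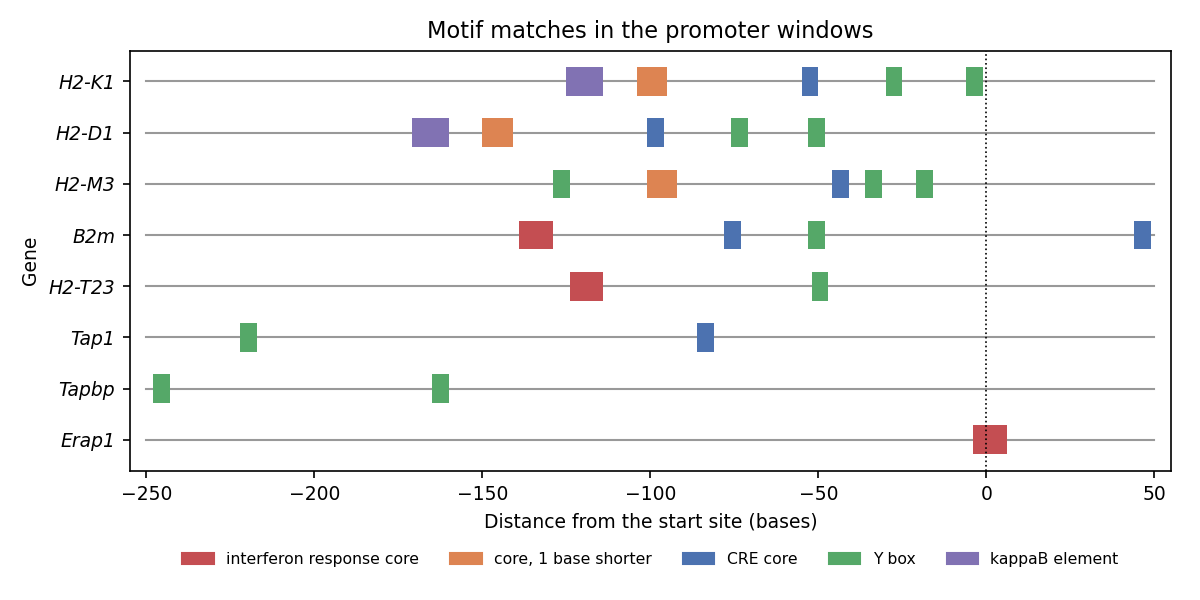
Positions of the matched boxes in the 300-base promoter windows of 8 class I pathway genes, 1 line per gene, with distance from the start site in bases on the horizontal axis and coloured blocks for the boxes. In B2m, H2-K1, H2-D1 and H2-M3 a CRE core is followed by a Y box whose start lies 25 bases further on.

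Of the 10 genes, 8 rose by more than 2-fold in the array labelled EP4 cKO and none fell by that much, where the shares among the 14676 genes with a value were 4.86% higher and 7.87% lower. The median log2 ratio of the 10 genes was 1.39, with a range from 0.55 (Tapbp) to 5.0 (Nlrc5, a bound), and that of all genes with a value was -0.10. All 10 genes had a value. Nlrc5 passed through the array labelled EP4 cKO alone, and a gene that passes in this way could not come out lower there. Of the 9 genes whose brightest probe was well above background on both arrays, 7 were more than 2-fold higher, against 4.03% of all genes of that kind. Probe by probe, 12 were well above background on both arrays and all 12 were higher in the array labelled EP4 cKO. Of the 14 probes with a value, 10 were more than 2-fold higher, against 3.99% of all probes, and none was lower by as much, against 8.58%. In whole colon, more cells of a type and more RNA per cell cannot be told apart.

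**Figure D2:**
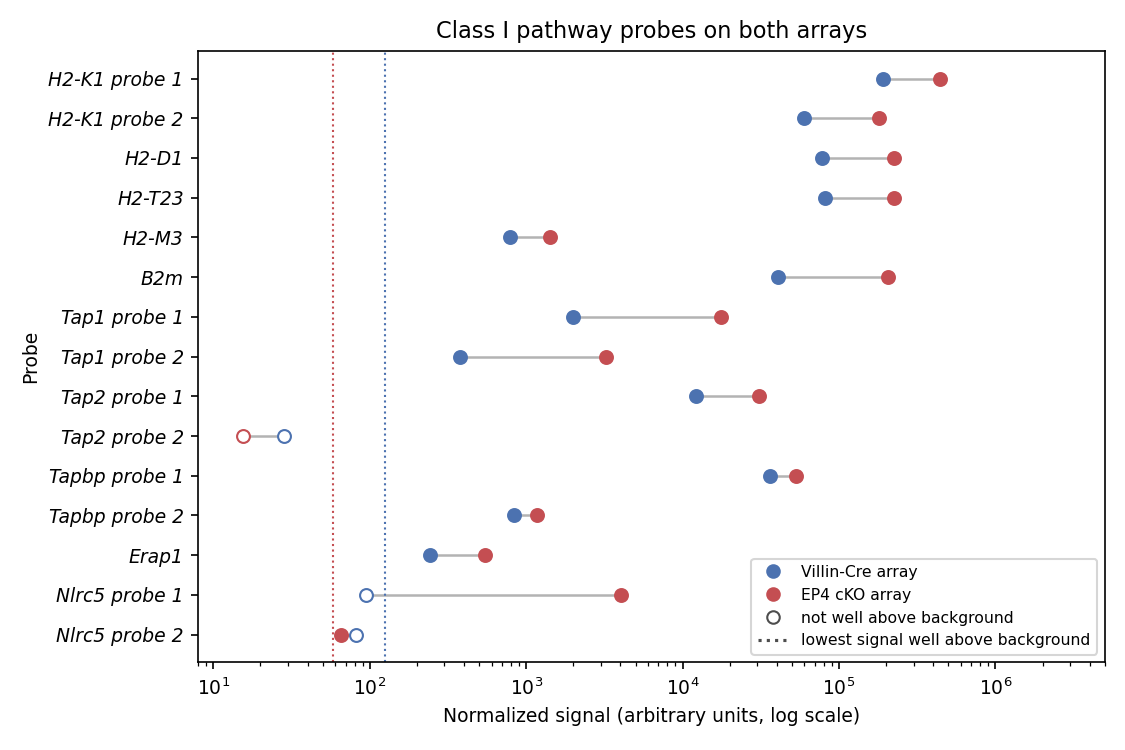
Normalized signal (log scale) of the 15 class I pathway probes on the array labelled Villin-Cre (blue) and the array labelled EP4 cKO (red), with open circles for probes not well above background and dotted lines at the floors of 125 and 57.8. Every probe that is filled on both arrays lies further right in red, and Nlrc5 probe 1 crosses from below the floor to 4021.

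H2-K1 and H2-D1 encode the classical heavy chains, which present peptides to CD8+ T cells. The brighter H2-K1 probe read 190835 for Villin-Cre, against 439092 for the array labelled EP4 cKO, 2.30-fold higher (log2 ratio 1.2 ± 0.20, where the error is that of the scanner software for the spots and covers no mice). The other H2-K1 probe went from 60126 to 179131, 2.98-fold (log2 1.57 ± 0.20). Both probes of H2-K1 rose. Their log2 ratios differed by more than the software error of either probe, though by less than the sum of their errors. H2-D1 read 77807 and 223370, a rise of 2.87-fold (log2 1.52 ± 0.20). Among all genes, 3.63% had a larger ratio than H2-K1 and 2.41% a larger one than H2-D1.

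The nonclassical heavy chains were split at the 2-fold line. H2-T23, which encodes Qa-1, the ligand of the CD94 and NKG2 receptors of natural killer cells, rose from 81819 to 223066, 2.73-fold (log2 1.45 ± 0.20). Its ratio lay within the software error of that of H2-D1. H2-M3, which presents peptides that begin with a formylated methionine, as those of bacteria do, read 783 and 1425, 1.82-fold (log2 0.86 ± 0.21). H2-M3 stayed under 2-fold here and passed it in 3 of 9 alternative ways of processing, and its log2 ratio was above 0 in all 9. Heavy-chain genes are alike in sequence. How far the probes of 1 gene also bind the RNA of another was not tested, so the heavy-chain values need not be independent of each other.

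B2m, whose product is the light chain shared by all these heavy chains, is on chromosome 2, away from the H2 region of chromosome 17 that holds 7 of the 10 genes. It read 40589.5 for Villin-Cre, against 205450 for the array labelled EP4 cKO, 5.06-fold higher (log2 2.34 ± 0.20). Its log2 ratio was larger than that of any of the 4 heavy chains by more than the software error, and 1.08% of all genes had a larger one. With its promoter at chr2:122147487-122147686 it shares the spaced TGACG and ATTGG of H2-K1, H2-D1 and H2-M3, whose log2 ratios ran from 0.86 to 1.52.

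Tap1 and Tap2 encode the subunits of the transporter that feeds peptides into the ER, and their ratios were unequal. The brighter Tap1 probe rose from 1995 to 17606, 8.82-fold (log2 3.14), and the other Tap1 probe from 378 to 3243, 8.59-fold (log2 3.1 ± 0.24). The probes of Tap1 gave nearly the same ratio although their signals differed. Tap2 rose from 12231 to 30622 on its brighter probe, 2.50-fold (log2 1.32 ± 0.20). The other Tap2 probe read 28.4 and 15.5, below the floor of both arrays, and gave no fold. The ratio of Tap1 exceeded that of Tap2 by more than the software errors of both. In chromosomal order the genes beside them were H2-DMb1, Psmb9, Tap1, Psmb8, Tap2, H2-Ob and H2-Ab1, with log2 ratios of 6.41, 3.16, 3.14, 3.29, 1.32, 0.00 and 5.89. H2-Ob read 114, not well above background, and 95.2, well above background, and was counted at 0 with no fold. Psmb9, Tap1 and Psmb8, which lie next to each other, differed from each other by less than the software error, while Tap2 beside them was lower.

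**Figure D3:**
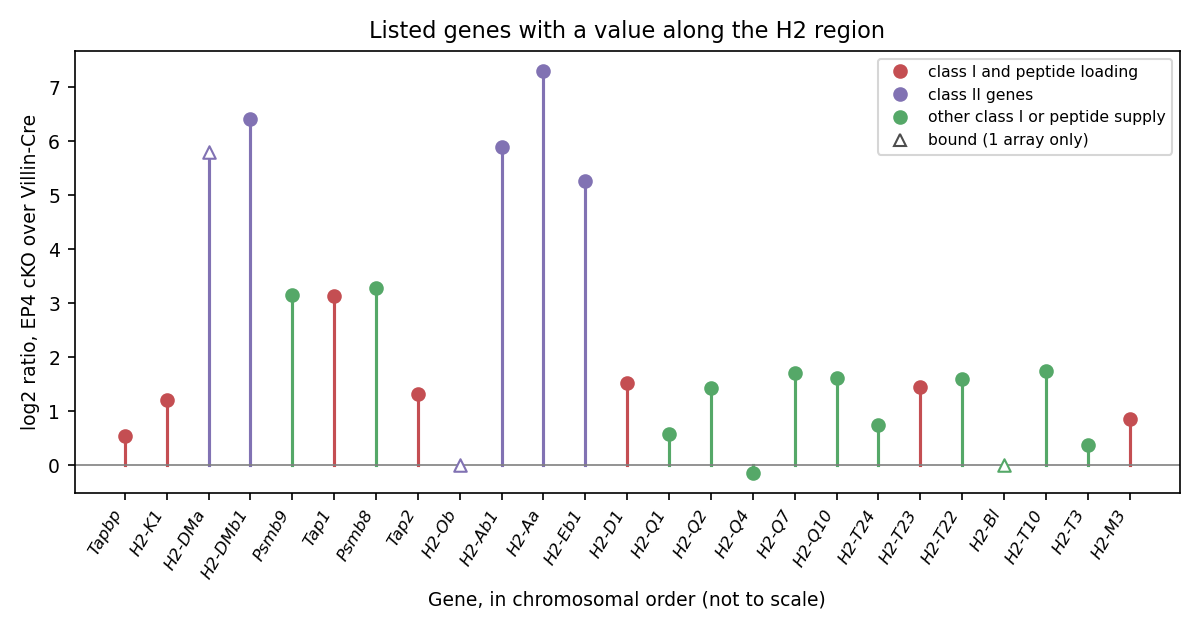
Log2 ratio, EP4 cKO over Villin-Cre by label, of the listed genes with a value along the H2 region of chromosome 17, in chromosomal order and not to scale (red, the genes described here; purple, class II genes; green, other class I or peptide supply genes; triangles, bounds or genes counted at 0). The class II genes reach 5.26 to 7.30 with H2-Ob at 0, while Tapbp, H2-K1, Tap2, H2-D1, H2-T23 and H2-M3 lie between 0.55 and 1.52.

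Tapbp and Erap1 act on the peptide and the heavy chain inside the ER. Tapbp, which encodes tapasin, read 36236 and 53066 on its brighter probe, 1.46-fold (log2 0.55 ± 0.20), and 832 and 1165 on the other, 1.40-fold (log2 0.49 ± 0.21). It was the smallest ratio of the 10 genes, with 10.6% of all genes above it, and neither probe reached 2-fold. Erap1, the aminopeptidase that trims peptides to the length that fits the heavy chain, rose from 242 to 548, 2.26-fold (log2 1.18 ± 0.26). Its signals were closest to the floor among the probes measured on both arrays. The rise of Erap1 was under 2-fold with normexp background correction and quantile normalization, at a log2 ratio of 0.90.

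Nlrc5 had the largest ratio of the 10 genes by its brighter probe, and not when its probes were averaged. The brighter probe read 95.2 for Villin-Cre, which was not well above background, and 4021 on the array labelled EP4 cKO, at least 32.1-fold higher (log2 bound 5.0). The probe's own signals, with no floor, gave a log2 ratio of 5.40, and normexp with quantile normalization gave 3.82. The other Nlrc5 probe read 81.2, not well above background, and 65.2, well above background, and was counted at a log2 ratio of 0 with no fold, where its own signals gave -0.32. The Nlrc5 probes therefore disagreed. Their mean, with the 0, was 2.50, below the 3.12 of Tap1 under the same rule.

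**Figure D4:**
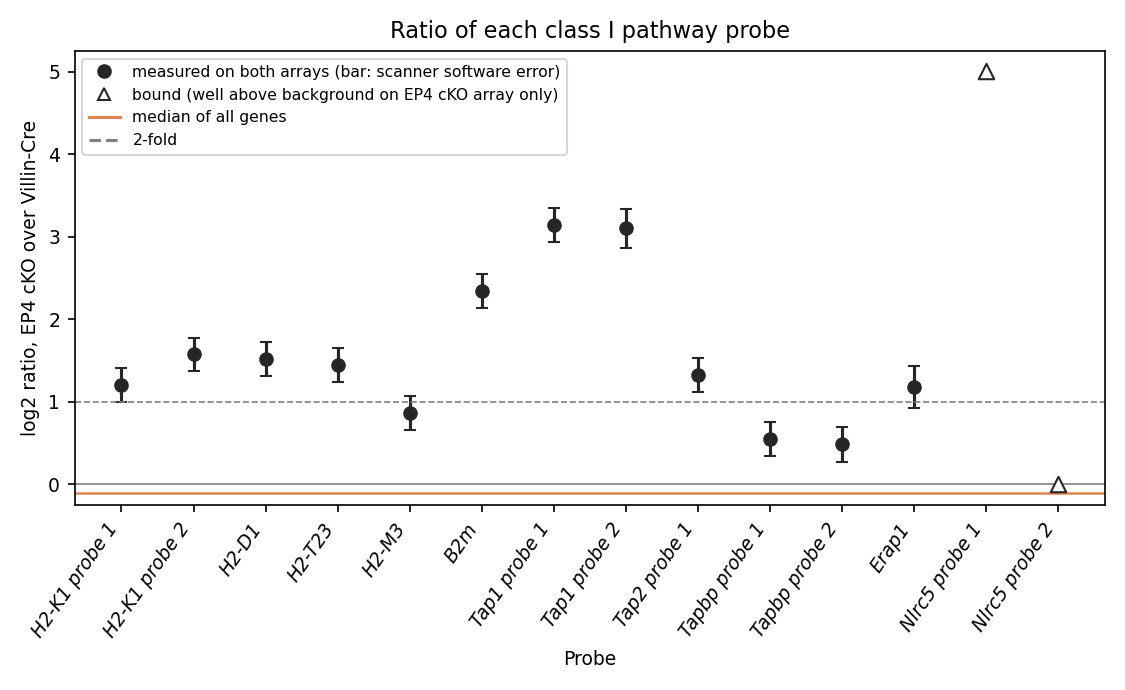
Log2 ratio of each class I pathway probe with a value, array labelled EP4 cKO over array labelled Villin-Cre, with bars for the error of the scanner software, open triangles for bounds or values counted at 0, and lines at 2-fold and at the median of all genes. Nlrc5 probe 1, both Tap1 probes and B2m stand above the other probes, and the Tapbp probes and H2-M3 lie under the 2-fold line.

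By the size of the log2 ratio of the brightest probe the genes ran Nlrc5 (a bound of 5.0), Tap1 (3.14), B2m (2.34), H2-D1 (1.52), H2-T23 (1.45), Tap2 (1.32), H2-K1 (1.2), Erap1 (1.18), H2-M3 (0.86) and Tapbp (0.55). From H2-D1 to Erap1, each gene differed from the next by less than the software error of either, and their order is not resolved. Nlrc5, Tap1 and B2m were the 3 genes past 3-fold, against 2.21% of all genes. With a spaced TGACG and ATTGG in the promoter the log2 ratios were 0.86 to 2.34 (H2-M3, H2-K1, H2-D1 and B2m), and without it they were 0.55 to 3.14 (Tapbp, Erap1, H2-T23 and Tap1). These ranges overlapped.

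Markers of cell types were read beside these values, and their part in the class I result was not tested. Epithelial cells, which carry the Cre, were well represented on both arrays. Their 6 markers were all well above background and summed to 1021724 for Villin-Cre and 1464537 for the array labelled EP4 cKO, with 1 of 6 more than 2-fold higher (Krt20, log2 1.80). Without Krt20 they summed to 875149 and 953826, most of it from Krt8 (663603 and 686670). The log2 ratios of Epcam (0.56), Vil1 (0.52) and Krt8 (0.05) were above 0, and those of Cdh1 (-0.10) and Cdx2 (-0.25) were below 0. The markers of T and natural killer cells were mixed. All 8 had a value and summed to 5816 and 12718, and to 5339.7 and 6923 without Gzma, and 4 passed 2-fold: Gzma (3.60), Gzmb (a bound of 2.19), Nkg7 (1.42) and Cd3g (1.28). The granzymes and Nkg7 belong to cytotoxic granules. The genes of the T cell receptor complex did not share a direction, with Cd3e at -0.10 and Cd3d at -0.79 beside Cd3g, and Cd2 was at 0.91. Cd8a read 88.6, not well above background, and 119, and was counted at 0 with no fold. Over all leukocytes, Ptprc, which encodes CD45, read 416 and 813 (log2 0.97), Coro1a was 1.53 and Laptm5 was -0.58, and the 3 summed to 1517 and 3390.

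Markers of the professional antigen-presenting cells gave no common direction. Of the 7 macrophage and dendritic cell markers 5 had a value, at log2 ratios of 1.73 (Itgax), 0.33 (C1qb), 0 (C1qa, with no fold), -0.09 (Cd68) and -0.79 (Csf1r), and Adgre1 and Lyz2 were not above background on either array. The list summed to 5884 and 4257, most of it from Csf1r (4874 and 2817), and to 1011 and 1440 without it. Of the 5 B and plasma cell markers 3 had a value, none passed 2-fold, Cd79a and Ms4a1 were not above background, and the list summed to 368 and 469. Fibroblast markers went the other way from the class I genes. The 4 fibroblast markers with a value all fell, with log2 ratios of -5.77 (Dcn), -5.03 (Col1a2), -4.32 (Col1a1, a bound) and -3.15 (Lum, a bound). Pdgfra, also listed, was not above background on either array. Of the 4 smooth muscle markers none passed 2-fold and they summed to 22361 and 33355, although Myh11, which the muscle layers of whole colon should show, was not above background on either array. Endothelial markers summed to 231 and 220, with 1 of 3 above background.

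The other class I genes differed by whether they belong to the H2 region, with H2 genes on both sides of the 2-fold line. Among 27 listed genes, 22 had a probe and 16 a value, with a median of 0.48, and 6 of the 16 passed 2-fold upwards and none downwards. All 6 were H2 genes: H2-T10 (annotated as a transcribed pseudogene) at a log2 ratio of 1.75, H2-Q7 at 1.71, H2-Q10 at 1.62, H2-T22 at 1.60, H2-Q8 at 1.55 and H2-Q2 at 1.44. The median over the 11 H2 genes with a value was 1.44, close to that of the 10 genes described here. The H2 genes with a value that did not pass 2-fold were H2-T24 (0.76), H2-Q1 (0.59), H2-T3 (0.37), H2-Bl (counted at 0 with no fold) and H2-Q4. H2-Q4 read 57114 and 52097 (log2 -0.13), and this sign turned in 2 of 9 alternatives. The 5 class I-like genes coded outside H2 are Cd1d1 and Mr1, which present lipids and metabolites, Fcgrt, a receptor for antibody, Hfe, a regulator of iron uptake, and Azgp1. They had a median of -0.40 and ran from -0.68 (Azgp1) to -0.25 (Hfe), all below 0 in 8 of 9 alternatives and above 0 with scaling to the E1A control spots. The Q and T genes share long stretches of sequence, and their values are uncertain for the same reason as those of the heavy chains.

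The genes that supply peptides moved with the class I genes only in part. Of 17 listed genes 15 had a value, with a median of 0.08, and 3 of them passed 2-fold, all upwards. The 3 were the inducible subunits of the immunoproteasome, which replace the constitutive catalytic subunits. Psmb8 rose from 3331 to 32512 (9.76-fold), Psmb9 from 4451 to 39696 (8.92-fold) and Psmb10 from 81290.1 to 179612 (2.21-fold). The constitutive subunits they replace had log2 ratios of -0.08 (Psmb5), 0.08 (Psmb6) and 0.20 (Psmb7), each at most 0.20 from 0, although scaling to the E1A control spots, which raised all genes, put them at 0.91, 1.07 and 1.19. Of the cytosolic peptidases, Lap3 had a log2 ratio of 0.96 and Thop1 of 0.86, both under 2-fold. The other listed peptidases with a value were below 0: Ide (-0.16), Tpp2 (-0.17), Npepps (-0.19), Blmh (-0.26) and Lnpep (-0.47).

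In the ER assembly list, 1 of 18 genes was more than 2-fold higher, none was more than 2-fold lower, and the median was 0.18. It was Tapbpl, which encodes the tapasin-related peptide editor TAPBPR, and it rose from 1989 to 5942 (2.99-fold), whereas Tapbp itself reached 1.46-fold. Pdia3, the oxidoreductase that pairs with tapasin in the loading complex, had a log2 ratio of 0.89, followed by Sec13 (0.56), Sec61b (0.48) and Hspa5 (0.47). The general chaperones of heavy chains, Calr (0.21) and Canx (-0.21), were both well under 2-fold, and the probes of Canx had opposite signs.

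Of 16 factors known to act at class I promoters, 5 rose by more than 2-fold, none fell by as much, and the median was 0.09. Ciita, the class II transactivator and a relative of Nlrc5, read 85.2, not well above background, and 7937, at least 63.3-fold higher (log2 bound 5.98). Its other probe gave 1.80, and the mean of its probes was 3.89. Stat2 (log2 1.88) and Irf9 (1.75), which carry interferon signals to the nucleus, and Irf1 (1.36), which binds the interferon response core, rose as well. Stat2 was under 2-fold, at 0.94, when its probes were averaged. The RFX and NF-Y subunits, through which NLRC5 is known to act, did not pass 2-fold. A box for RFX was not among those marked above. Rfxank had a log2 ratio of -0.70 and Rfxap of -0.11, and Rfx5 was counted at 0 with no fold. The Y box factors Nfya, Nfyb and Nfyc were at 0.06, 0.16 and -0.22. Creb1 and Atf1, of the same list, were at -0.50 and 0.11. Probes of Nfyb, of Nfyc and of Atf1 disagreed in sign. Rfxap was above 0 in 5 of 9 alternatives and Nfyc in 3, and Rfxank was above 0 only with scaling to the E1A control spots.

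The class II genes, which present peptides to CD4+ T cells and most of which share the TAP region of the chromosome, had larger ratios. Of 10 listed genes 7 had a value and 6 were more than 2-fold higher, with a median of 5.89. H2-Aa reached a log2 ratio of 7.30, Cd74 6.99, H2-DMb1 6.41 and H2-DMa a bound of 5.80. Among the class I pathway genes measured on both arrays the largest log2 ratio was that of Tap1 (3.14), below the smallest of these 6, H2-Eb1 (5.26), and Nlrc5 is known only as a bound (5.0).

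**Figure D5:**
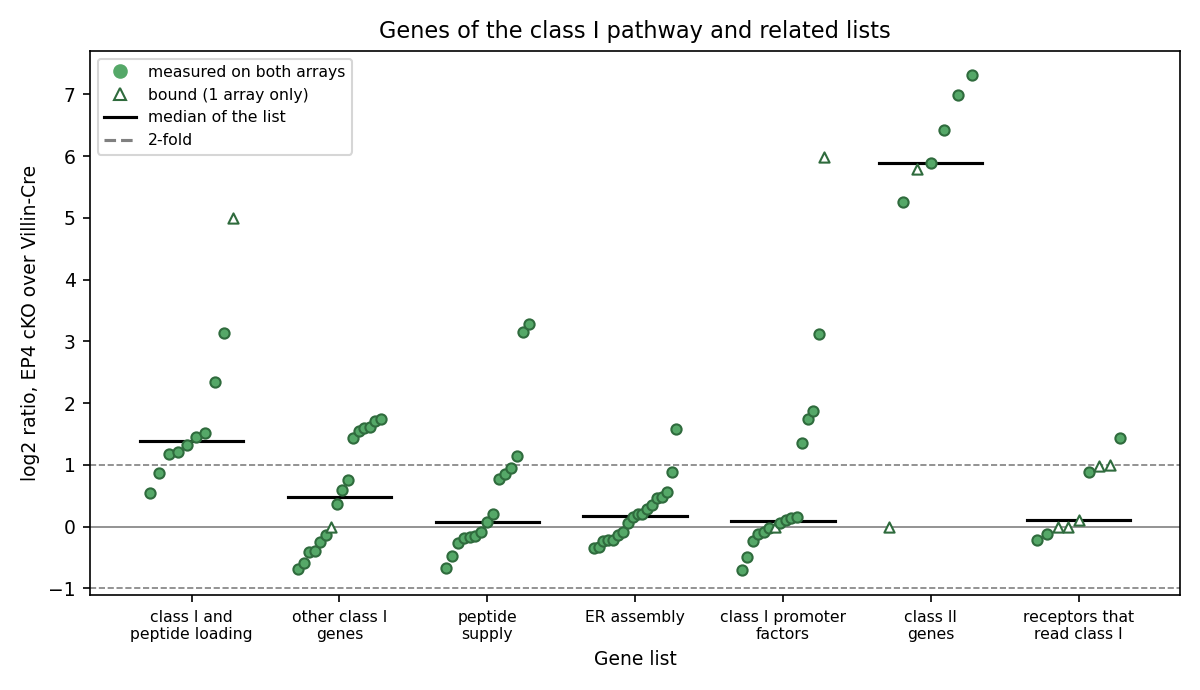
Log2 ratio, array labelled EP4 cKO over array labelled Villin-Cre, of each gene with a value in 7 lists, with circles for genes measured on both arrays, triangles for bounds or values counted at 0, and a black bar at the median of each list. The median is 1.39 for the class I and peptide loading genes and 5.89 for the class II genes, and lies between 0.08 and 0.48 in the others.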

How the data were processed

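Gene expression was measured on 2 Agilent SurePrint G3 arrays, 1 per genotype, assigned by the labels. The authors deposited the intensity of each spot from Agilent's scanner software (Feature Extraction 12.0.3.1 per the file headers and 11.5.1.1 per the submitters' processing notes), with the background subtracted but not scaled between arrays. Following the methods of the study, the processed signals of gene probes were scaled to a trimmed mean of 2500 (2% of the probes left out at each end), with factors of 3.45 (Villin-Cre) and 2.68 (EP4 cKO). Control spots were dropped, as were spots that the software marked as outliers, and repeated spots were averaged by probe. Probes were named by RefSeq accession through a table of GRCm38.p6, which matched 32984 of 56593 probes (58.3%). A gene is its probe with the highest mean log2 signal among those well above background on 1 array or both. A bound on the fold that did not exceed 1 gives no fold and was counted at a log2 ratio of 0.

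No test was made with a single array for each genotype, and the number of arrays limits the precision. Spots of the 287 probes spotted 10 times had a median SD of the log2 ratio of 0.0353; this and the software error cover the arrays and not the mice. The genes described and the lists were chosen with earlier results of these data known. Named in each list are up to 5 genes with the largest log2 ratio in size, with markers past 2-fold and Ptprc; other genes were named with their values in view. Alternatives were scaling to the 75th percentile, to E1A control spots and over all spots, normexp (offset 50, on the median spot signal) with quantile normalization, loess (span 0.3), other filters on dim probes, other rules for the probe of a gene, and thresholds of 3-fold and 1.5-fold. The steps were tested on simulated data. Protein sequences were not analysed here, and the value of 1 listed gene is not reported here. The software was R 4.3.3 (limma 3.58.1) and Python 3.11.15 (pandas 2.3.3, numpy 2.4.6, matplotlib 3.10.9, statsmodels 0.14.6).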

Additional observations from a re-analysis of the deposited data

How the results depend on the processing

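The log2 ratio of each of the 10 genes was above 0 under every alternative that gave it a value. Their median, 1.39, was 1.54 with scaling to the 75th percentile, 1.52 with the trimmed mean over all spots, 2.38 with scaling to the E1A control spots, 1.503 with normexp and quantile normalization, 1.49 with loess and 1.32 over probes well above background on both arrays, where Nlrc5 had no value. The median of all genes moved too, from -0.10 to 0.83 with the E1A spots, to 0.03 with loess, to 0.00 with the 75th percentile, the trimmed mean over all spots and normexp, and to -0.37 with no filter on dim probes. Less the median of all genes, the median of the 10 genes lay between 1.46 and 1.75. Between 7 and 10 of the 10 genes were more than 2-fold higher under these scalings and filters, and at the scaling reported above 3 were more than 3-fold higher. Counts of other lists that moved by over 1.5 times were those of peptide supply, 5 with the 75th percentile, 8 with the E1A spots and 6 at 1.5-fold in place of 3, of ER assembly, 2 with the 75th percentile, 2 with the trimmed mean over all spots, 11 with the E1A spots, 2 at 1.5-fold and 0 at 3-fold in place of 1, of promoter factors, 9 with the E1A spots in place of 5, and of receptors that read class I, whose alternatives were added after seeing the data, 4 with the 75th percentile, 4 with the trimmed mean over all spots, 4 with loess, 5 with the E1A spots, 5 with no filter on dim probes, 4 at 1.5-fold and 0 at 3-fold in place of 1. The E1A spots also put 35.9% of all genes past 2-fold higher. The cause of these shifts was not tested. Signal over background limits Nlrc5 and Erap1, whose probes were near the floor of the array labelled Villin-Cre. No array could be left out, and no paired analysis was possible because each genotype has 1 array.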

Other observations

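Genes listed as receptors that read class I molecules were mostly dim in whole colon. Whether each of them, Cd244a and Lilrb4a included, binds class I molecules was not tested here. Of 16 listed genes 13 had a probe and 9 a value, 1 was more than 2-fold higher, and the median was 0.11. Up to 5 passed 2-fold under other scalings and filters. Of the 9 genes with a value, 5 passed through the array labelled EP4 cKO alone and could not come out lower there. The median is itself the bound of Klrk1, which is among these 5. Cd8b1, which encodes the beta chain of the CD8 coreceptor, rose from 181 to 489 (log2 1.44), while Cd8a, which encodes the alpha chain, read 88.6, not well above background, and 119, and was counted at 0 with no fold. Klrd1, which encodes CD94, a part of the receptor for Qa-1, the product of H2-T23, read 336 and 620 (log2 0.88), and its partner Klrc1 was not above background on either array. Klra7 and Lilrb4a, an inhibitory receptor of natural killer cells and one of myeloid cells, had bounds of 0.99 and 0.98 on the log2 scale, and Cd244a had a log2 ratio of -0.21. No array carried a probe matched here to Klrc2, Klra3 or Lilrb3.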
